A study of Mus musculus with 21 samples.

Results

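Dendritic cells treated for 24 h with CpG were compared with dendritic cells treated for 24 h with Pam3CSK4. The comparison took in every array labelled with either agent at 24 h, which came to 6 of the 21 arrays of the study. Each agent had 3 arrays, 1 each of the genotypes crel-/-relb-/-, relb-/- and wild type (WT), and CpG was set against Pam3CSK4 within each genotype. All cells were derived from bone marrow, and the labels give C57Bl6 as the strain of each. The remaining arrays held the same genotypes at 0 h without stimulation, and at 1 and 8 h of treatment. The labels give no doses, no growth factors and no account of the Relb and Rel alleles. The labels do not say whether the arrays came from separate cultures or animals. The p-values set the mean difference over the 3 genotypes against the residual spread of the model of all 21 arrays. With 1 array per genotype and condition, that spread mixes responses that differ between genotypes with variation between arrays. It may be technical in part and is not a spread of replicates. A difference of the agent effect between genotypes rests on 1 array per agent and genotype and was not tested.

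Dendritic cells sense microbes through Toll-like receptors. CpG is an oligonucleotide carrying unmethylated CpG dinucleotides, which is recognised inside endosomes by TLR9, whereas Pam3CSK4 is a synthetic lipopeptide recognised at the cell surface by TLR2 paired with TLR1. Both receptors signal through the adaptor MyD88 to NF-kB, and TLR9 can also engage interferon regulatory factors. Relb encodes RelB and Rel encodes c-Rel, which are NF-kB subunits with roles in dendritic cell maturation.

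The values are the authors' deposited normalized intensities of an Illumina bead array, on a linear scale, and the median of all of them was 47.3. A difference is the mean log2 intensity with CpG minus that with Pam3CSK4 over the 3 genotypes. Its standard error (SE) comes from a limma model of condition and genotype on all 21 arrays, and a gene was called at a Benjamini-Hochberg adjusted p under 0.05 over 10587 genes. Unless genotypes are named, sets of 3 values run over crel-/-relb-/-, relb-/- and WT cells in that order.

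The crel-/-relb-/- CpG array stood apart from the rest. Its residual SD in the model was 0.189 on the log2 scale, against 0.0966 to 0.140 for the other 20 arrays. Every result was therefore also computed without that array, which left 2 CpG arrays. Intensities of the genes for the targeted subunits matched the labels only in part. Rel lay at 45.5, 101 and 61.1 with CpG, against 35.6, 107 and 88.1 with Pam3CSK4. It was below the median of all values on both crel-/-relb-/- arrays. Relb lay at 99.6, 129 and 228 with CpG, against 97.8, 109.7 and 267 with Pam3CSK4, lower in both mutants than in WT cells, but above that median in all 6 arrays. The labels do not give the deleted parts, and the levels therefore check the alleles only in part.

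Of 13 conventional dendritic cell markers, 9 were bright enough to be tested. Flt3, Xcr1, Clec9a and Cd209a did not exceed 45.3 on any array at 24 h. The integrin gene Itgax lay at 207, 166 and 199 with CpG, against 284, 194 and 261 with Pam3CSK4, and Batf3, the gene of a transcription factor of these cells, at 440.1, 703 and 605 with CpG, against 386, 578 and 497 with Pam3CSK4. The class II gene H2-Ab1 was bright, at 4316, 4372 and 5540 with CpG, against 5346, 4036 and 5240 with Pam3CSK4. Markers of macrophages and monocytes were well measured, with Adgre1, the gene for F4/80, at 5389.6, 4322 and 3557 with CpG, against 6509, 4576 and 4977 with Pam3CSK4. The summed intensity of 9 conventional dendritic cell markers was 1501, 1851 and 1899 with CpG, against 1475, 1722 and 1803 with Pam3CSK4. The sum of 10 macrophage and monocyte markers was 9239.5, 7366 and 7578 with CpG, against 11146, 8375 and 9769.8 with Pam3CSK4, lower with CpG in each genotype. Adgre1 and Cd14, both lower with CpG in each genotype, made up most of these sums. The median log2 difference of the list was above 0, at 0.38. The sum of 10 neutrophil markers was 10901, 16341 and 15049.5 with CpG, against 24845, 26146 and 23567 with Pam3CSK4. This sum was also lower with CpG in each genotype and was made up mostly of Lcn2. The sums lay between 242.4 and 267.9 with CpG, against 230.6 and 267.7 with Pam3CSK4, for 5 B cell markers, and between 643 and 865.5 with CpG, against 627 and 815 with Pam3CSK4, for 8 T and natural killer cell markers.

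The agents left dendritic cells with different levels of inflammatory and cell cycle genes at 24 h. The interleukin-1 genes Il1a and Il1b and the neutrophil-attracting chemokine genes Cxcl1, Cxcl2 and Cxcl3 were lower with CpG by up to 4.43-fold, the value of Cxcl1. Higher with CpG were 11 of 20 genes of the cell cycle, the Fc gamma receptor genes Fcgr1 and Fcgr4, the complement genes C1qb and C1qc, and the chemokine gene Ccl12. Of 10587 genes, 261 were called over all 3 genotypes. CpG was higher for 140 of them, or 1.32% of genes tested, and lower for 121, or 1.14%. The counts of called list members given below are to be set beside these shares. At least a 2-fold difference was reached by 9 of the higher and 17 of the lower genes. All but 1 of the 261 had the same direction in each genotype, where 17.8% of all genes tested were higher and 15.4% lower in 3 of 3 genotypes. In 201 of the 261 the 3 CpG values did not overlap the 3 Pam3CSK4 values, which held for 11.2% of genes tested. The call rests on these same differences, so even direction and lack of overlap largely follow from it and are no separate support.

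The count of calls depended on single arrays. It was 169 without the crel-/-relb-/- CpG array, with 80 higher (0.756%) and 89 lower (0.841%). Both fits called 135 genes, 65 higher and 70 lower, in the same direction each time. The count was 137 without the WT Pam3CSK4 array, 108 without the crel-/-relb-/- Pam3CSK4 array and 424 without the WT CpG array. Of the 24 genes with the largest differences described below, 17 were called whichever 1 of the 6 arrays was left out. The same held for 31 of all 57 genes named by the rule and called.

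Within single genotypes, with 1 array per agent and no test, the number of genes at least 2-fold apart was uneven. In crel-/-relb-/- cells, CpG was at least 2-fold higher for 137 genes (1.29%) and lower for 57 (0.538%). In relb-/- cells these numbers were 13 (0.123%) and 21 (0.198%). In WT cells they were 22 (0.208%) and 30 (0.283%).

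**Figure D1:**
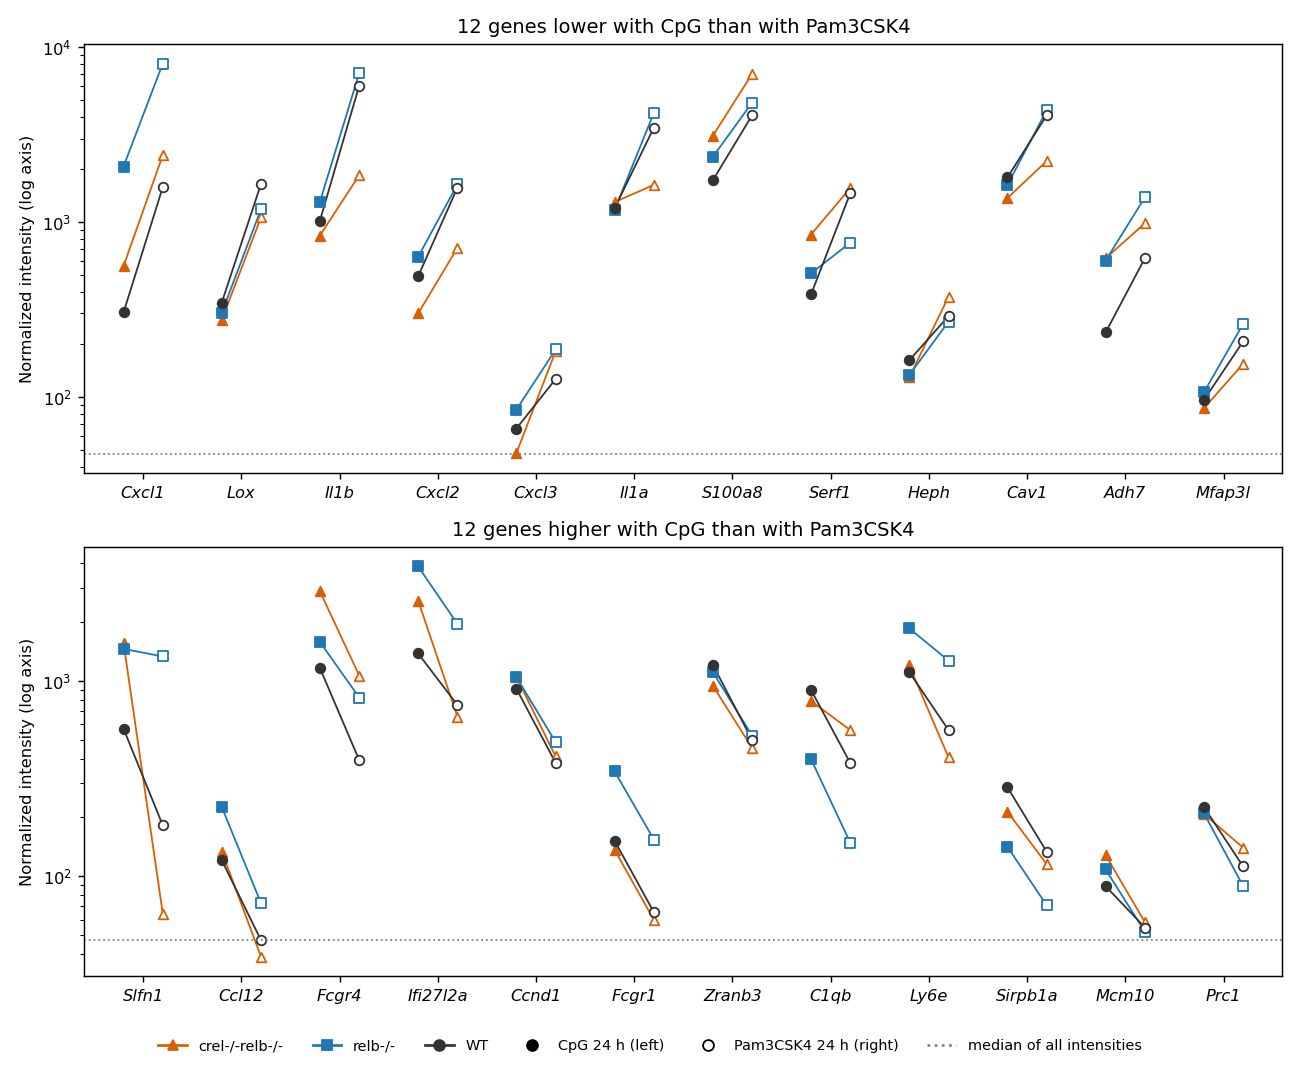
Intensities at 24 h, on a log axis, of the 12 genes furthest lower with CpG (upper panel) and the 12 furthest higher with CpG (lower panel). Filled symbols are CpG arrays and open symbols Pam3CSK4 arrays, each line joins the 2 arrays of 1 genotype, and the dotted line marks the median of all intensities, 47.3. Lox is lower with CpG by about the same step in all 3 genotypes, while Slfn1 has a long step in crel-/-relb-/- cells and a short step in relb-/- cells.

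Several of the largest differences lay among secreted mediators that recruit neutrophils. CXCL1, CXCL2 and CXCL3 are chemokines that act on the receptor CXCR2, and interleukin-1 alpha and beta are alarm cytokines that induce them. All 5 genes were lower with CpG than with Pam3CSK4. Cxcl1 intensities were 559.6, 2075 and 304 with CpG, against 2410.5, 8051 and 1582 with Pam3CSK4 in crel-/-relb-/-, relb-/- and WT cells. Each genotype was lower with CpG, though the relb-/- CpG value lay above the WT Pam3CSK4 value, so the groups overlap. The fitted CpG level was 4.43-fold lower (log2 difference -2.15 ± 0.27, adjusted p = 0.000139, limma, 3 pairs), and without the crel-/-relb-/- CpG array the difference was -2.03 ± 0.31, adjusted p = 0.00125. Cxcl2 gave 300.3, 633 and 489 with CpG, against 712, 1641 and 1574 with Pam3CSK4, and Cxcl3 gave 47.7, 84.6 and 66 with CpG, against 183, 187 and 127 with Pam3CSK4. For both genes every CpG value was under every Pam3CSK4 value. The log2 difference of Cxcl2 was -1.43 (adjusted p = 0.000288) and that of Cxcl3 was -1.34 (adjusted p = 0.000371). In bulk RNA, fewer cells that express a gene and less of its RNA per cell cannot be told apart.

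These 3 chemokine genes also share a sequence ahead of their starts. The 250 bases upstream of each start are shown because the same 11 bases, in capitals, stand in all 3, in a form known as an NF-kB site. They are from RefSeq on GRCm38.p6, plus strand, at chr5:90890995-90891244 for Cxcl1, chr5:90903649-90903898 for Cxcl2 and chr5:90785851-90786100 for Cxcl3, read 5′ to 3′.
Cxcl1: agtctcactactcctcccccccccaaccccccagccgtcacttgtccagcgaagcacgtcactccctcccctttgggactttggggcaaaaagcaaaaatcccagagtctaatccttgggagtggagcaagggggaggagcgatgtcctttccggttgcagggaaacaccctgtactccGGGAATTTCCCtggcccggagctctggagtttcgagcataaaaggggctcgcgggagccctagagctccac
Cxcl2: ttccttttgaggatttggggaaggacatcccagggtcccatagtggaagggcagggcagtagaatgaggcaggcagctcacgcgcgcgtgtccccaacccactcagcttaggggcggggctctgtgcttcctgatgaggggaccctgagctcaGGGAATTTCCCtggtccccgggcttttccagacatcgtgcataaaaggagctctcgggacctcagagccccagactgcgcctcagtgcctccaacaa
Cxcl3: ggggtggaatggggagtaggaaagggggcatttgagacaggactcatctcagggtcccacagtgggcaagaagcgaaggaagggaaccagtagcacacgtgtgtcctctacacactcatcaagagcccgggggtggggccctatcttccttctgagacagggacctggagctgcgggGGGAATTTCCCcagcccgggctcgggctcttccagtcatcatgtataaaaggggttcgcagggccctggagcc
The capitals begin at position -71, -97 and -73 from the start in Cxcl1, Cxcl2 and Cxcl3. The motif searched was the core of the NF-kB site, on both strands, and the capitals hold 2 overlapping matches. In windows from 250 bases before to 50 after the start, it occurred in 482 of 32851 promoters (1.47%), in 164 of the 11032 of genes tested (1.49%), in 3 of the 127 promoters of genes called lower with CpG (2.36%) and in 2 of the 139 of genes called higher (1.44%). The 3 promoters with a match among genes called lower are those of Cxcl1, Cxcl2 and Cxcl3 shown here, and no other held one. The match describes these letters and not binding. The 3 genes are similar in sequence, and cross-hybridisation of their probes was not tested.

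The pairs of interleukin-1 values were furthest apart in relb-/- and WT cells, on 1 array per agent each. Il1b gave 837, 1304 and 1019 with CpG, against 1852, 7114 and 6025 with Pam3CSK4. The CpG values were all lower than the Pam3CSK4 values, and the crel-/-relb-/- pair was the closest (log2 difference -2.05 ± 0.25, adjusted p = 0.000112). The difference was -2.21 ± 0.28, adjusted p = 0.000266 with the crel-/-relb-/- CpG array left out. For Il1a the values were 1299, 1173 and 1197 with CpG, against 1631, 4204 and 3462 with Pam3CSK4, again without overlap (log2 difference -1.23 ± 0.27, adjusted p = 0.0162). That call was lost when the relb-/- CpG, the relb-/- Pam3CSK4 or the WT Pam3CSK4 array was left out, and the difference with 1 array left out ran from -1.54 to -1.03. Il1rn encodes the antagonist that blocks the interleukin-1 receptor, and it ran the opposite way, at 3562, 2156 and 1519 with CpG, against 1326, 1836 and 1209 with Pam3CSK4. It was higher with CpG in each genotype (log2 difference 0.66 ± 0.17, adjusted p = 0.0468), most so in crel-/-relb-/- cells, and without the crel-/-relb-/- CpG array it did not pass (adjusted p = 0.26). Its call was lost without 4 of the 6 arrays, with a range of 0.43 to 0.88. A further Il1rn probe gave a difference of 0.05.

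Other cytokine genes gave smaller differences. Of 18 genes on the list of pro-inflammatory cytokines, 2 were called higher and 3 lower with CpG, with a median difference of 0.03 against 0.01 over all genes tested. The lower ones were Il1b, Il1a and Il12a, which encodes the p35 subunit of interleukin-12. Il12a had 49.6, 57.4 and 63.4 with CpG, against 52.5, 128 and 133 with Pam3CSK4, and was dim on the CpG arrays (log2 difference -0.77 ± 0.18, adjusted p = 0.0279). The higher ones were Csf1, the gene for a macrophage growth factor (log2 difference 0.77 ± 0.18, adjusted p = 0.0281), and Tnfsf15 (log2 difference 0.56 ± 0.12, adjusted p = 0.011), which was named after its value was seen. With 1 array left out in turn, Il12a lost its call for 4 of the 6 arrays (-1.14 to -0.58) and Csf1 for 3 (0.57 to 0.95). Only Il1b and Il1a of this list were called when the crel-/-relb-/- CpG array was left out. Il6 had 228, 604 and 427 with CpG, against 272, 1340.5 and 863 with Pam3CSK4, and Tnf had 674, 1501 and 1006 with CpG, against 862, 3764 and 2276 with Pam3CSK4, lower with CpG in each genotype but not called (adjusted p = 0.106 and 0.175). Il10 stayed dim, at 58.9, 47.6 and 49.7 with CpG, against 42.1, 43.7 and 43.6 with Pam3CSK4 (0.27, adjusted p = 0.0527). Il12b and Tlr9 had no probe named here.

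Of 18 chemokine genes, 2 were called higher and 3 lower, with a median difference of 0.25. Beside Cxcl1, Cxcl2 and Cxcl3, the gene Cxcl5 was called lower when the crel-/-relb-/- CpG array was left out (-1.02 ± 0.25, adjusted p = 0.0446), and over all genotypes it had -0.83 with an adjusted p of 0.0628. Ccl12, which encodes a monocyte-attracting chemokine, was the furthest higher. Its values were 134, 226 and 121 with CpG, against 38.7, 72.8 and 47 with Pam3CSK4, and the groups did not overlap (log2 difference 1.60 ± 0.24, adjusted p = 0.000648). On the crel-/-relb-/- and WT Pam3CSK4 arrays it lay at or under the median of all values, so its fold may be understated. A further Ccl12 probe gave 0.88 (adjusted p = 0.0171). Ccl22, the gene of a T cell attracting chemokine named after its value was seen, was also higher (log2 difference 0.65 ± 0.15, adjusted p = 0.0289). At 0 h Ccl12 had lain at 163, 162 and 135, so by 24 h Pam3CSK4 left it below the unstimulated level in each genotype, and CpG did so in crel-/-relb-/- and WT cells.

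Lox had the smallest adjusted p of all genes. It encodes lysyl oxidase, a copper enzyme that crosslinks collagen and elastin. Its intensities were 276, 302 and 346 with CpG, against 1064, 1182 and 1651 with Pam3CSK4, a step of similar size in each genotype (log2 difference -2.06 ± 0.15, adjusted p = 1.87e-07). The CpG level was 4.16-fold lower. At 0 h all 3 genotypes lay under the median of all values, at 40.1, 37 and 42.1, so the gene was higher after 24 h with either agent than at 0 h. Without the crel-/-relb-/- CpG array the difference was -2.06 ± 0.18, adjusted p = 4.85e-06.

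Further genes had large differences that were less even over the genotypes. Cav1, which encodes the main coat protein of caveolae, had 1371, 1631 and 1797 with CpG, against 2232, 4357 and 4079 with Pam3CSK4 (log2 difference -1.10 ± 0.15, adjusted p = 0.000235). Heph, which encodes a membrane ferroxidase that oxidises iron for export, had 129, 133 and 162 with CpG, against 374, 269.6 and 289.8 with Pam3CSK4 (log2 difference -1.13 ± 0.11, adjusted p = 7.97e-06). Neither overlapped between the agents. The Cav1 difference was -0.70, -1.42 and -1.18 and that of Heph -1.53, -1.02 and -0.84 in crel-/-relb-/-, relb-/- and WT cells. Other probes of Heph differed in size, with -0.67, which was called, and -0.06, which was not. Adh7, an alcohol dehydrogenase gene whose product also acts on retinol, had 621, 602 and 234 with CpG, against 983, 1384 and 622 with Pam3CSK4 (log2 difference -1.09 ± 0.24, adjusted p = 0.0166), and its call was lost without the WT CpG, the relb-/- Pam3CSK4 or the crel-/-relb-/- Pam3CSK4 array. With 1 array left out the Adh7 difference ran from -1.32 to -0.71. Mfap3l (log2 difference -1.09 ± 0.13, adjusted p = 0.000112) and Serf1 (log2 difference -1.13 ± 0.24, adjusted p = 0.0132) complete the 12 genes furthest lower. A further Mfap3l probe gave -0.22. Serf1 overlapped between the agents and lost its call without the WT CpG, the WT Pam3CSK4 or the crel-/-relb-/- Pam3CSK4 array, with a range of -1.44 to -0.77 over the arrays left out.

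Genes for effector proteins of innate defence gave calls in 1 direction, lower with CpG. Of 22 genes for inflammatory enzymes and effectors, 9 were called lower and 0 higher, with a median difference of -0.39. Among all genes tested, 1.14% were called lower. Leaving out the crel-/-relb-/- CpG array kept 7 of the 9 calls and added none. Saa3, an acute-phase serum amyloid gene, had 947, 1636 and 1675 with CpG, against 1806, 2746 and 4293 with Pam3CSK4 (log2 difference -1.01 ± 0.15, adjusted p = 0.000642). Slpi, which encodes an inhibitor of neutrophil proteases, had 1051, 1074 and 704 with CpG, against 2234, 1666 and 1663 with Pam3CSK4 (log2 difference -0.99 ± 0.14, adjusted p = 0.000318). In both genes each CpG value lay under that of Pam3CSK4 in the same genotype, and the groups did not overlap. Ptges makes prostaglandin E2 from its precursor. It had 67, 62.9 and 61.5 with CpG, against 96.1, 199 and 111 with Pam3CSK4 (log2 difference -1.01 ± 0.18, adjusted p = 0.00282), and its relb-/- pair was the furthest apart. Slc7a2, which encodes an arginine and lysine transporter, had 1889, 1854 and 2129 with CpG, against 2249, 5412 and 4596 with Pam3CSK4 (log2 difference -0.97 ± 0.19, adjusted p = 0.00808). The call of Slc7a2 was lost without the relb-/- Pam3CSK4 array, where the difference was -0.72, and its other probes gave -0.97 and -0.16. The other 5 called members were Hp, Mmp9, Lcn2, Serpinb2 and Ass1, with differences from -0.86 to -0.63. Nos2, the inducible nitric oxide synthase gene, was not called (log2 difference 0.09 ± 0.24, adjusted p = 0.899).

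**Figure D2:**
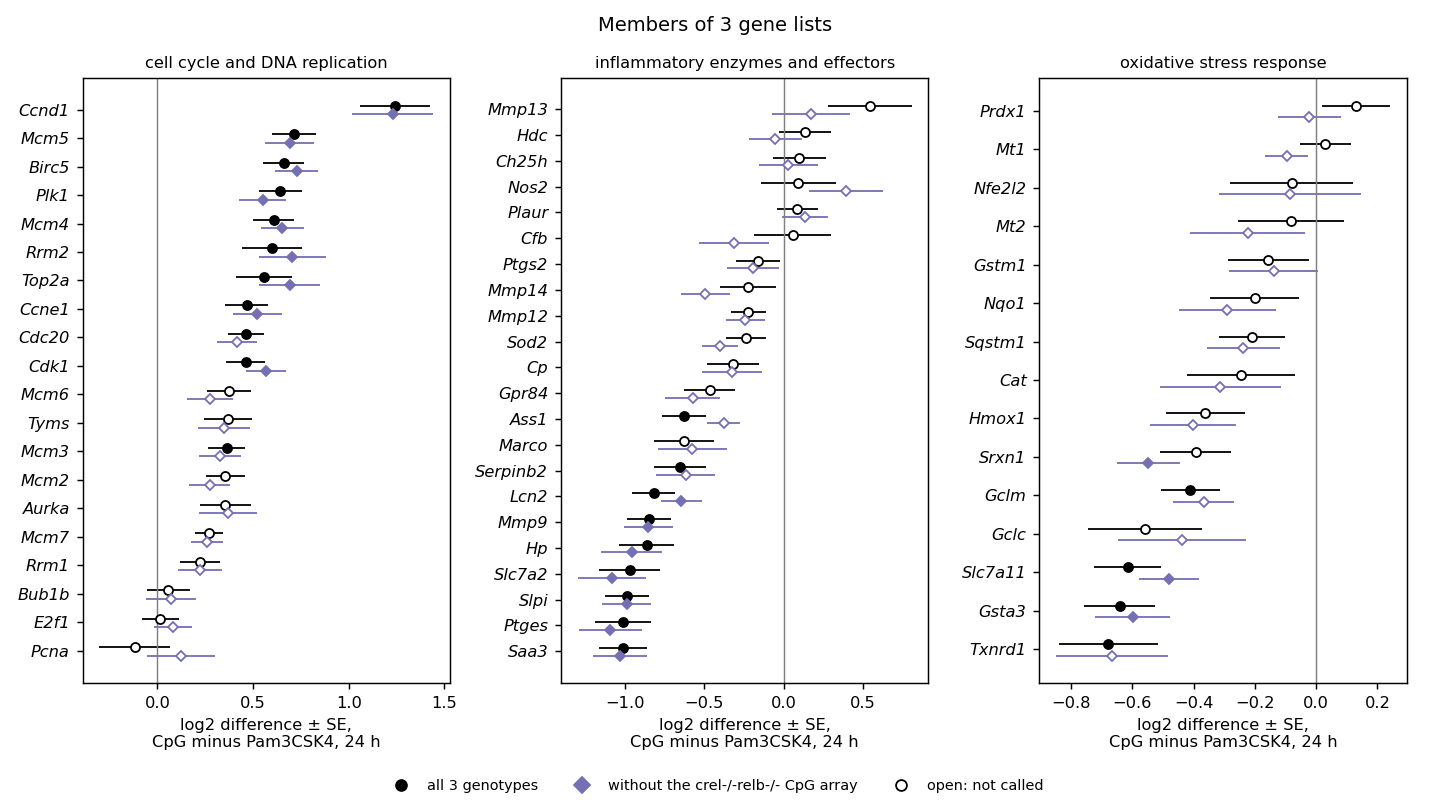
Log2 difference, CpG minus Pam3CSK4 at 24 h, with its SE for every tested member of the lists of cell cycle and DNA replication, inflammatory enzymes and effectors, and oxidative stress response. Circles are the fit on all 3 genotypes, diamonds the fit without the crel-/-relb-/- CpG array, and open symbols did not pass an adjusted p of 0.05. The 11 called cell cycle genes lie right of 0, and the 9 called effector genes and the 4 called oxidative stress genes lie left of it.

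S100a8 and Lcn2 are also on the neutrophil marker list. S100a8, a subunit of calprotectin that neutrophils and activated myeloid cells make, had 3107, 2356 and 1729.7 with CpG, against 7015, 4807 and 4072 with Pam3CSK4 (log2 difference -1.15 ± 0.23, adjusted p = 0.00911). It did not pass without the crel-/-relb-/- CpG array (adjusted p = 0.0651) or without the WT Pam3CSK4 array, and its difference ran from -1.33 to -0.91 with 1 array left out. Lcn2, which encodes the iron-sequestering lipocalin 2, had 7235, 13320.3 and 12768 with CpG, against 17188, 20842 and 18881 with Pam3CSK4 (log2 difference -0.82 ± 0.14, adjusted p = 0.00195). The groups did not overlap in either gene. Of 10 neutrophil markers tested, 2 were called lower and 0 higher, and the median difference of the list was 0.11. The part of neutrophil RNA in these differences was not tested.

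Cd14 and Tlr2, which serve recognition of bacteria at the cell surface, were lower with CpG as well. On the list of Toll-like receptors and adaptors, 3 of 20 genes were called lower and 1 higher, with a median of -0.08. Among all genes tested, 1.14% were called lower and 1.32% higher. Cd14, the co-receptor that hands lipopeptides and lipopolysaccharide to TLR2 and TLR4, had 1641, 1543 and 1626 with CpG, against 2998, 2927 and 3562 with Pam3CSK4 (log2 difference -0.97 ± 0.12, adjusted p = 0.000125). Tlr2, which encodes the receptor of Pam3CSK4 itself, had 971, 1076 and 1223 with CpG, against 2184, 1981 and 2319 with Pam3CSK4 (log2 difference -0.99 ± 0.19, adjusted p = 0.00648). Every CpG value of both genes lay under every Pam3CSK4 value. At 0 h Tlr2 had lain at 783, 993 and 520.1. The call of Tlr2 was lost without the WT Pam3CSK4 array, where the difference was -0.85. Irak3, a brake on Toll-like receptor signalling, was lower (log2 difference -0.56 ± 0.13, adjusted p = 0.0233). Tlr8, an endosomal receptor gene, was higher (log2 difference 0.39 ± 0.10, adjusted p = 0.04) but not without the crel-/-relb-/- CpG array (adjusted p = 0.194). Irak3 (-0.68 to -0.44) and Tlr8 (0.32 to 0.51) each lost the call for 4 of the 6 arrays left out in turn.

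Among 17 NF-kB subunits and regulators, 2 were called lower and 0 higher, with a median of -0.07. Nfkbiz encodes I kappa B zeta, a nuclear cofactor of NF-kB at secondary response genes, and had 229.8, 321 and 273 with CpG, against 329, 531 and 469.6 with Pam3CSK4 (log2 difference -0.67 ± 0.13, adjusted p = 0.00663). The groups did not overlap. Tnip1, an inhibitor that works with A20, gave -0.46 (adjusted p = 0.0348), and -0.29 (adjusted p = 0.161) without the crel-/-relb-/- CpG array. Its other probes gave -0.04, -0.11 and -0.42, none called. Relb and Rel were not called (adjusted p = 0.981 and 0.904).

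Genes of the oxidative stress response included 4 called lower of 15, against 1.14% of all genes tested, with 0 called higher and a median of -0.25. They were the glutathione transferase gene Gsta3 (log2 difference -0.64 ± 0.11, adjusted p = 0.00351), the thioredoxin reductase gene Txnrd1 (log2 difference -0.68 ± 0.16, adjusted p = 0.0289), the cystine transporter gene Slc7a11 (log2 difference -0.62 ± 0.11, adjusted p = 0.0033) and Gclm (log2 difference -0.41 ± 0.10, adjusted p = 0.0261), a subunit of the enzyme that starts glutathione synthesis. Slc7a11 had 1242, 1609.7 and 1634 with CpG, against 2335, 2356 and 2137 with Pam3CSK4, without overlap. Without the crel-/-relb-/- CpG array 3 members were called, namely Gsta3, Slc7a11 and the sulfiredoxin gene Srxn1 (-0.55 ± 0.10, adjusted p = 0.00739), which was named after its value was seen. A further Gsta3 probe gave -0.20, not called. Of 15 heat shock and unfolded protein response genes, 2 were called lower and 0 higher, with a median of -0.22. These were the chaperone genes Hspd1 (log2 difference -0.64 ± 0.14, adjusted p = 0.0187) and Hspa5 (log2 difference -0.64 ± 0.15, adjusted p = 0.0261), and a further Hspd1 probe gave -0.10. Hspa5 was not called without the crel-/-relb-/- CpG array (adjusted p = 0.0594). With 1 array left out in turn, Hspd1 lost its call for 3 of the 6 arrays (-0.74 to -0.52), and Hspa5 (-0.76 to -0.49), Txnrd1 (-0.92 to -0.45) and Gclm (-0.45 to -0.37) each for 4 of them.

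The Fc gamma receptor genes Fcgr1 and Fcgr4 and the complement genes C1qb and C1qc were higher with CpG. Fcgr4 encodes an activating IgG receptor of mouse myeloid cells. Its intensities were 2878, 1584 and 1164 with CpG, against 1065, 822 and 393 with Pam3CSK4 in crel-/-relb-/-, relb-/- and WT cells, a 2.49-fold higher fitted level with CpG (log2 difference 1.31 ± 0.20, adjusted p = 0.000648). The groups did not overlap. Fcgr1, the gene of the high-affinity IgG receptor, had 136, 344 and 152 with CpG, against 59.8, 154 and 65.4 with Pam3CSK4. It was higher with CpG in each genotype, but the groups overlapped because the relb-/- Pam3CSK4 value lay above 2 CpG values (log2 difference 1.19 ± 0.22, adjusted p = 0.00535). C1qb and C1qc encode chains of C1q, the recognition protein of the classical complement pathway. C1qa, the gene of the remaining chain, was tested as well and was called neither with nor without the crel-/-relb-/- CpG array. C1qb had 789.8, 398 and 899.7 with CpG, against 560, 148 and 380 with Pam3CSK4 (log2 difference 1.05 ± 0.15, adjusted p = 0.000318), and C1qc had 470, 209 and 525 with CpG, against 305, 108 and 236 with Pam3CSK4 (log2 difference 0.91 ± 0.13, adjusted p = 0.000314), higher with CpG in each genotype, with overlap between the groups.

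The upstream sequence of Fcgr4 is shown because it holds a match to an interferon-stimulated response element. It is from RefSeq on GRCm38.p6, plus strand, at chr1:171018676-171018925, read 5′ to 3′, with the match in capitals.
Fcgr4: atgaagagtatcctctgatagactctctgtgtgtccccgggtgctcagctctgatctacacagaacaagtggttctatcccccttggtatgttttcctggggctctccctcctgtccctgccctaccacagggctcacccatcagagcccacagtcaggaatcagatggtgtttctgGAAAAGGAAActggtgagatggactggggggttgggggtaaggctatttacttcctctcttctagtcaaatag
The match begins at -73 from the start, and the windows of Fcgr1, C1qb and C1qc held 0 such matches. The motif was the core of the interferon-stimulated response element, on both strands, found in 1131 of 32851 promoters (3.44%), in 364 of the 11032 of genes tested (3.30%), in 7 of the 139 promoters of genes called higher with CpG (5.04%) and in 5 of the 127 of genes called lower (3.94%).

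Of 10 macrophage and monocyte markers, 3 were called higher and 2 lower, with a median of 0.38, and 4 and 2 without the crel-/-relb-/- CpG array. The higher ones were Fcgr1, C1qb and C1qc, and the lower ones were Cd14 and Cx3cr1 (log2 difference -0.49 ± 0.08, adjusted p = 0.00139), which was named after its value was seen. Mrc1, the mannose receptor gene, was called higher without the crel-/-relb-/- CpG array (1.19 ± 0.20, adjusted p = 0.00295) and not with it (log2 difference 0.74 ± 0.26, adjusted p = 0.138). Calls on the list ran in both directions while its summed intensity was lower with CpG, and its part in the other differences was not tested.

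Further genes were among the 12 furthest higher with CpG. Sirpb1a, which encodes a signal regulatory protein of myeloid cells, had 214, 142 and 285 with CpG, against 115, 70.9 and 133 with Pam3CSK4 (log2 difference 1.00 ± 0.19, adjusted p = 0.00551), without overlap, and a further probe gave 0.39. Zranb3, which encodes a helicase that remodels stalled replication forks, had 946, 1111 and 1210.4 with CpG, against 455, 525 and 499 with Pam3CSK4 (log2 difference 1.14 ± 0.22, adjusted p = 0.00663), without overlap. It lost its call without the crel-/-relb-/- Pam3CSK4 array, with a difference of 0.88. Ly6e encodes an interferon-induced surface protein and had 1202, 1859.9 and 1111 with CpG, against 406, 1271 and 560.4 with Pam3CSK4 (log2 difference 1.03 ± 0.19, adjusted p = 0.00365). It was higher with CpG in each genotype, and the values of the agents overlapped. Slfn1, a Schlafen family gene, had the largest positive difference among called genes but an uneven one, with 1566, 1459.6 and 569 with CpG, against 64.3, 1335 and 182 with Pam3CSK4 (log2 difference 2.13 ± 0.53, adjusted p = 0.0357). The crel-/-relb-/- pair was far apart and the relb-/- pair close. Without the crel-/-relb-/- CpG array the difference was 1.29 ± 0.47, adjusted p = 0.238, and the call was also lost without the WT Pam3CSK4 or the crel-/-relb-/- Pam3CSK4 array. The Slfn1 difference ran from 1.29 to 2.83 with 1 array left out.

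Genes of the cell cycle and DNA replication were the list with the most members higher with CpG. Of 20 tested, 11 were called higher and 0 lower, and 17 were higher in 3 of 3 genotypes. Among all genes tested, 1.32% were called higher and 17.8% were higher in 3 of 3 genotypes. The median difference was 0.42, and by genotype it was 0.50, 0.43 and 0.34. Leaving out the crel-/-relb-/- CpG array kept 9 of the 11 calls and added none. Ccnd1, which encodes cyclin D1 of the G1 phase, had 1048, 1048 and 914 with CpG, against 410.4, 486 and 380.4 with Pam3CSK4 (log2 difference 1.24 ± 0.18, adjusted p = 0.000648). Mcm5, a subunit of the replicative helicase, had 312, 266 and 248 with CpG, against 188, 151 and 164 with Pam3CSK4 (log2 difference 0.71 ± 0.12, adjusted p = 0.00174). The groups did not overlap in either gene. Ccnd1 had further probes with 1.14 and 0.85, both called.

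Called members of the list also included Birc5 and Plk1. Birc5, which encodes survivin of the chromosomal passenger complex, had 104, 95 and 103 with CpG, against 69.3, 53.5 and 69.8 with Pam3CSK4 (log2 difference 0.66 ± 0.11, adjusted p = 0.00143), while further probes gave 0.65, which was called, and 0.33, which was not. Plk1, a mitotic kinase gene, had 104, 73.5 and 78 with CpG, against 51.1, 53.4 and 57.3 with Pam3CSK4 (log2 difference 0.64 ± 0.11, adjusted p = 0.00331). The other called members were Mcm3, Mcm4, Cdk1, Cdc20, Ccne1, Top2a and Rrm2, with differences from 0.36 to 0.61. Outside the list, Mcm10, needed to start replication, had 128, 108 and 88.9 with CpG, against 58.1, 51.9 and 54.6 with Pam3CSK4 (log2 difference 0.97 ± 0.10, adjusted p = 3e-05). Prc1, also outside it, which bundles microtubules in cytokinesis, had 208, 210.5 and 226 with CpG, against 140, 89 and 112 with Pam3CSK4 (log2 difference 0.94 ± 0.13, adjusted p = 0.000235). Neither overlapped between the agents. A further Mcm10 probe gave 0.35.

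Set against 0 h, the median of the cell cycle list was below 0 with both agents. At 24 h it was -0.19 with CpG and -0.64 with Pam3CSK4 relative to the unstimulated arrays, which both values share. Prc1 lay at 448, 308 and 383 at 0 h and Birc5 at 210.2, 158 and 190.1, above all their 24 h values. Ccnd1 lay at 572, 678 and 409 at 0 h, between its values with CpG and with Pam3CSK4 in each genotype.

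Interferon-stimulated genes separated the agents unevenly across the genotypes. Of 28 tested, 1 was called higher and 0 lower, with a median difference of 0.72. By genotype the median was 1.72 in crel-/-relb-/-, 0.04 in relb-/- and 0.50 in WT cells. At least a 2-fold higher level with CpG was reached by 23 members in crel-/-relb-/- cells, 0 in relb-/- cells and 6 in WT cells. The called gene was Ifi27l2a, with 2577, 3861 and 1383 with CpG, against 656, 1958 and 753 with Pam3CSK4 (log2 difference 1.28 ± 0.27, adjusted p = 0.0119), and it lost its call without the crel-/-relb-/- CpG array (1.07 ± 0.30, adjusted p = 0.0792) or without the crel-/-relb-/- Pam3CSK4 array. Its difference ran from 1.07 to 1.54 with 1 array left out. Without the crel-/-relb-/- CpG array the median of the list was 0.38, and limma called 0 members, with 4 at an unadjusted p under 0.05, a share near the 1221 of 10587 genes (11.5%) at that level in the same fit. In the fit on all genotypes 17 had an unadjusted p under 0.05, where 1677 of 10587 genes (15.8%) did.

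Antiviral effector genes show how the levels lay. Ifit3, whose product is an interferon-induced protein with tetratricopeptide repeats, had 7031, 8256 and 1297 with CpG, against 223, 8474 and 426 with Pam3CSK4. With CpG the crel-/-relb-/- and relb-/- values were high and the WT value lower, while with Pam3CSK4 the relb-/- value alone was high. Isg15, a ubiquitin-like modifier gene, had 1581, 2322 and 545 with CpG, against 149, 1784 and 272 with Pam3CSK4. Rsad2, the gene of viperin, had 8824, 11019.9 and 2376 with CpG, against 765, 10994 and 1155 with Pam3CSK4. Within each agent the genotypes came in the order seen for Ifit3, while the relb-/- value was higher with CpG in both genes and higher with Pam3CSK4 in Ifit3. None of the 3 was called (adjusted p = 0.0994, 0.155 and 0.214). At 0 h Ifit3 was at 53.6, 441 and 56.5, so relb-/- cells had the highest level before stimulation.

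The large difference in crel-/-relb-/- cells was also seen on other arrays. At 8 h, where all CpG and Pam3CSK4 arrays are different ones, the median difference of the interferon-stimulated list was 1.93 in crel-/-relb-/-, 0.30 in relb-/- and 0.60 in WT cells, and 21 members were at least 2-fold higher in crel-/-relb-/- cells. Ifit3 at 8 h had 4984, 3092 and 1772 with CpG, against 191, 1588 and 530.3 with Pam3CSK4. At 1 h the medians were -0.01, -0.01 and 0.03.

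**Figure D3:**
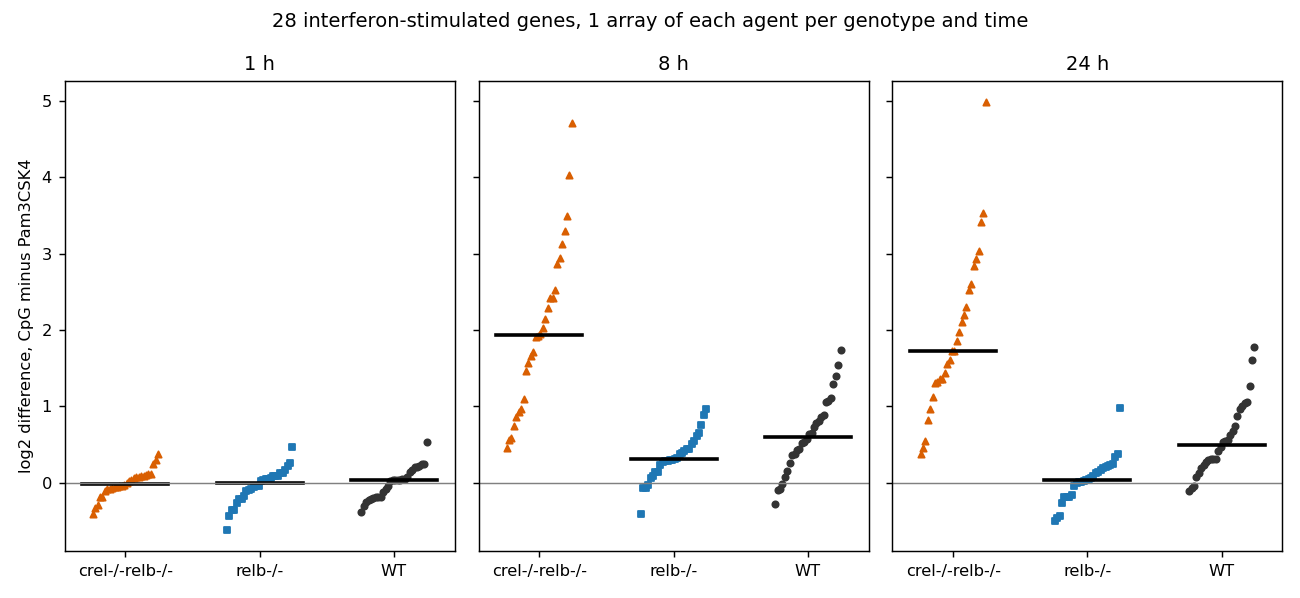
Log2 difference, CpG minus Pam3CSK4, of each of 28 interferon-stimulated genes in crel-/-relb-/-, relb-/- and WT cells at 1, 8 and 24 h. Each point is 1 gene from 1 CpG array and 1 Pam3CSK4 array, and the black bar is the median, which reads 1.72, 0.04 and 0.50 at 24 h.

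Isg15 is given as the example of this list's upstream sequence, because the core of the interferon-stimulated response element occurs 3 times in overlap there. It is from RefSeq on GRCm38.p6, minus strand, at chr4:156200819-156201068, read 5′ to 3′ along that strand, with the run of matches in capitals.
Isg15: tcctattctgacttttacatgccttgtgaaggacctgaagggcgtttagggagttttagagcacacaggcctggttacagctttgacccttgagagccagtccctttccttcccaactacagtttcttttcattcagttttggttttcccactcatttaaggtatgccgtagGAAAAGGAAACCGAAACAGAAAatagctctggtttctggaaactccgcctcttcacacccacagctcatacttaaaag
The run begins at -78 from the start. Ifit3 and Bst2 held 2 matches each and Rsad2 held 1 in their own windows, while Irf7, Oasl2 and Phf11d held 0. The motif and its share among all promoters are those given for Fcgr4.

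Regulators of interferon were less far apart. Of 12 genes on that list, limma called 0, with 5 at an unadjusted p under 0.05 (15.8% of all genes tested) and a median of 0.09. Irf7, the factor that amplifies interferon production, had 517, 846 and 231 with CpG, against 63.4, 774 and 96.1 with Pam3CSK4 (log2 difference 1.47 ± 0.41, adjusted p = 0.0615), with the relb-/- value again the highest with each agent. Irf1 had 1593, 2648 and 2493 with CpG, against 699, 1899.9 and 1620.3 with Pam3CSK4 (log2 difference 0.76 ± 0.21, adjusted p = 0.0623). Ifnb1, the gene for interferon beta, had 56.9, 487 and 41.6 with CpG, against 34.1, 279 and 40.9 with Pam3CSK4 (log2 difference 0.52 ± 0.36, adjusted p = 0.519) and was above the median of all values only in relb-/- cells and on the crel-/-relb-/- CpG array. Of 8 guanylate-binding and immunity-related GTPases, 0 were called, with 2 at an unadjusted p under 0.05 and a median of 0.29. Their furthest members were Irgm2 (0.84) and Igtp (0.82).

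The crel-/-relb-/- CpG array departed from the additive model in many genes. It had been singled out because earlier results of these data showed it to stand apart, so many departures were bound to appear. The array has no replicate, and its departure cannot be told apart from an effect of CpG particular to that genotype. The counts and p-values below describe the array and are not a test of either. An indicator for that array alone was called for 495 genes above the model (4.68%) and for 506 below it (4.78%). The same test on the other 5 arrays at 24 h called 0 genes, except 1 above and 6 below for the crel-/-relb-/- Pam3CSK4 array. With the crel-/-relb-/- CpG array left out of the fit, that Pam3CSK4 array had 5 above and 11 below. The furthest departures included Ptpn1, which encodes the phosphatase PTP1B, with 1701, 626 and 362 with CpG, against 1014, 883 and 689.6 with Pam3CSK4, and a departure of 1.82 (adjusted p = 0.000198). CpG was higher than Pam3CSK4 in crel-/-relb-/- cells and lower in the other genotypes, so the difference was -0.23 (adjusted p = 0.765) with the array and -0.83 (adjusted p = 0.0123) without it. Mmp8, a neutrophil collagenase gene, had 82.4, 346 and 206 with CpG, against 288, 194 and 293 with Pam3CSK4, and a departure of -1.84 (adjusted p = 0.000432). Slfn1 departed by 2.52 (adjusted p = 0.0245). Ifit3, Rsad2, Isg15, Oasl2 and Phf11d were far off in size, with 2.61, 2.11, 1.95, 1.69 and 1.76, but only Phf11d passed (adjusted p = 0.0375).

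Genes of antigen presentation and costimulation gave 1 call per list, where 1.32% of all genes tested were called higher. Unadjusted limma p was under 0.05 for 8 of 18 class I, 2 of 13 class II and 10 of 20 costimulation genes. The share over all genes tested was 15.8%. Without the crel-/-relb-/- CpG array these counts were 5, 3 and 7, and the share was 11.5%. Of 18 MHC class I presentation genes, 1 was called higher and 0 lower, with a median of 0.25. It was Tap2, a subunit of the peptide transporter, with 1254, 630.3 and 522 with CpG, against 357, 459.7 and 405 with Pam3CSK4 (log2 difference 0.88 ± 0.22, adjusted p = 0.0348), and without the crel-/-relb-/- CpG array it had 0.44 ± 0.14, adjusted p = 0.138. That array lay above the model in 6 genes of the list, Tap2 among them. Of 13 MHC class II genes, 1 was called higher in both fits, H2-DMa, which helps load peptides, with 1518, 1577 and 2176 with CpG, against 1033, 1347 and 1403 with Pam3CSK4 (log2 difference 0.47 ± 0.11, adjusted p = 0.0282), and the median was -0.02. The call of H2-DMa was lost without the WT CpG, the WT Pam3CSK4 or the crel-/-relb-/- Pam3CSK4 array, with a range of 0.38 to 0.56 over the arrays left out. Tap2 lost its call without 4 of the 6 arrays, with a range of 0.44 to 1.13. Of 20 costimulation and maturation genes, 1 was called higher and 0 lower, with a median of 0.33. Cd80 was the called gene, at 619, 1013 and 563 with CpG, against 249, 834 and 355 with Pam3CSK4 (log2 difference 0.75 ± 0.18, adjusted p = 0.0296), and was not called without the crel-/-relb-/- CpG array (adjusted p = 0.13), the WT Pam3CSK4 or the crel-/-relb-/- Pam3CSK4 array. Cd40 had 349, 4267 and 1281 with CpG, against 154, 3446 and 734 with Pam3CSK4, and Cd86 had 887, 1815 and 1198 with CpG, against 382, 1786 and 801 with Pam3CSK4, higher with CpG in each genotype and not called (adjusted p = 0.293 and 0.143). The relb-/- values of all 3 costimulatory genes were the highest with either agent.

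The arginase genes Arg1 and Arg2 were called in opposite directions. Arg1, the arginase of alternatively activated macrophages, had 7126, 3934 and 4630.3 with CpG, against 4448, 1860 and 2252 with Pam3CSK4 (log2 difference 0.93 ± 0.19, adjusted p = 0.0104), and Arg2, the mitochondrial arginase, had 44.1, 56.5 and 62.9 with CpG, against 98.2, 102 and 84.8 with Pam3CSK4 (log2 difference -0.81 ± 0.15, adjusted p = 0.00566). Arg1 was higher and Arg2 lower with CpG in each genotype, and without the crel-/-relb-/- CpG array only Arg2 passed (adjusted p = 0.0674 for Arg1 and 0.0492 for Arg2). The call of Arg1 was lost for 3 of the 6 arrays left out (0.75 to 1.22) and that of Arg2 for 0. Of 14 anti-inflammatory mediators, these genes and Il1rn were the calls, 2 higher and 1 lower, with a median of 0.08. Of 13 alternative activation genes, Arg1 was called higher over all genotypes and 0 were lower, with a median of 0.12.

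Several metabolic and stress lists gave 1 or 2 calls. Pparg, a lipid-sensing nuclear receptor gene, was higher (log2 difference 0.52 ± 0.13, adjusted p = 0.0303), 1 of 14 lipid handling genes, with a median of 0.06. Ddit3, which encodes the stress factor CHOP, was higher (log2 difference 0.90 ± 0.20, adjusted p = 0.0204) and Slc7a11 lower among 16 amino acid response and transport genes, with a median of 0.01. Atp5a1, a subunit of the mitochondrial ATP synthase, was lower (log2 difference -0.63 ± 0.16, adjusted p = 0.0349), 1 of 18 oxidative phosphorylation genes, with a median of -0.0035. Fas, which encodes a death receptor, was lower (log2 difference -0.48 ± 0.10, adjusted p = 0.00808), 1 of 17 survival and cell death genes, with a median of 0.07. Other Fas probes gave -0.05 and -0.17. Ddit3 was not called without the crel-/-relb-/- CpG array (adjusted p = 0.113), and Pparg, Slc7a11, Atp5a1 and Fas were. Slc7a11 and Fas were called whichever 1 of the 6 arrays was left out, while Pparg (0.34 to 0.71) and Atp5a1 (-0.73 to -0.54) lost their calls without any 1 of the other 5 arrays. A further Pparg probe gave 0.39, not called, and a further Ddit3 probe 0.72, called.

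Several pathways had 0 members called by limma over all genotypes. The number with an unadjusted p under 0.05 was 2 of 18 for immediate-early genes (median 0.06), 3 of 19 for glycolysis and hypoxia (0.03), 2 of 14 for the tricarboxylic acid cycle (0.02), 2 of 16 for cholesterol synthesis (0.02), 7 of 19 for lysosome and autophagy (-0.12) and 0 of 13 for ribosomal proteins (-0.01). Over all genes tested the share was 15.8%, which most of these counts lie near or under. The members furthest from 0 were Fos (0.67) and Jun (0.34), Vegfa (-0.46) and Pkm (-0.35), Dlst (-0.36) and Mdh2 (0.28), Lss (-0.37) and Pmvk (0.36), Lipa (-0.70) and Ctsz (-0.50), and Rps4x (-0.20) and Rpl10 (-0.18). A p that misses the threshold does not show that the agents acted alike on them.

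The remaining marker lists also gave 0 calls. With an unadjusted p under 0.05 there were 2 of 9 conventional dendritic cell markers (median 0.12), 1 of 5 plasmacytoid dendritic cell markers (0.09), 1 of 2 erythroid markers (0.21) and 2 of 7 stromal markers (-0.01). There were 0 of 4 eosinophil (0.07), 0 of 3 mast cell and basophil (0.07), 0 of 8 T and natural killer cell (0.11), 0 of 5 B cell (0.04) and 0 of 1 Langerhans-like markers (0.19). Against the 15.8% over all genes, these small counts are not read as a result about the markers. The members furthest from 0 had differences of -0.36 for Itgax, 0.25 for Batf3, 0.93 for Bst2, which is also an interferon-stimulated gene, 0.34 for Vim and 0.47 for Car2.

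The differences at 24 h were set against those at earlier times. At 8 h, 109 of the 140 genes called higher at 24 h also had a mean difference above 0, and 107 of the 121 called lower had one below 0. Over all genes tested, 6026 of 10587 had the same sign at both times. The test of the difference at 24 h minus that at 8 h, which share no array, called 0 genes in limma. It had 844 genes at an unadjusted p under 0.05 and a smallest adjusted p of 0.0573, and without the crel-/-relb-/- CpG array 812 and 0.0831. No gene can thus be named as particular to 24 h against 8 h.

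Against 1 h, a comparison added after the data were seen, 57 genes differed, 36 upward (0.34%) and 21 downward (0.198%), and 47 without the crel-/-relb-/- CpG array. Cxcl2 was lower with CpG at both times but by less at 24 h, with differences by genotype of -3.54, -3.37 and -3.84 at 1 h and -1.24, -1.37 and -1.69 at 24 h (24 h minus 1 h 2.15, adjusted p = 0.00065). Nfkbiz was also less far apart at 24 h than at 1 h (1.61, adjusted p = 0.000155). Lox had values close together at 1 h and far apart at 24 h, with differences of -0.11, -0.11 and -0.08 at 1 h and -1.95, -1.97 and -2.26 at 24 h (-1.95, adjusted p = 0.000155). Cxcl1 was already 194, 631 and 218 with CpG, against 3428, 5121 and 1732 with Pam3CSK4 at 1 h, and Il1b was 277, 517 and 315 with CpG, against 2067, 4357 and 3151 with Pam3CSK4.

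**Figure D4:**
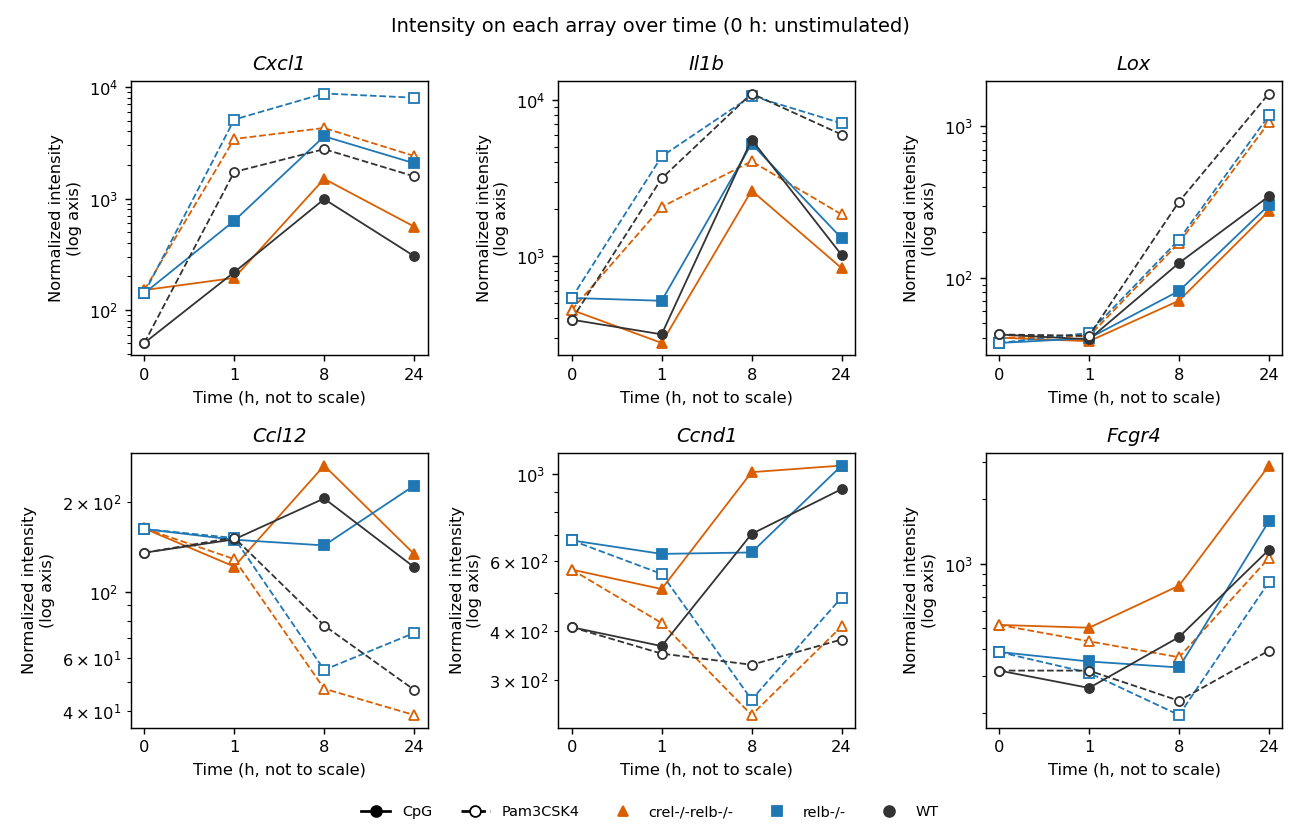
Intensities on a log axis of Cxcl1, Il1b, Lox, Ccl12, Ccnd1 and Fcgr4 at 0, 1, 8 and 24 h in each genotype. Solid lines with filled symbols are CpG, dashed lines with open symbols are Pam3CSK4, and each point is 1 array. Cxcl1 and Il1b are apart from 1 h on, while Lox is above the median of all intensities from 8 h on and widest apart at 24 h.

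Relative to unstimulated cells, the genes called lower with CpG were mostly above their level at 0 h with both agents. The mean at 24 h lay above that at 0 h for 92 of the 121 with CpG and for 119 with Pam3CSK4. Of the 140 called higher, 94 lay above 0 h with CpG and 41 with Pam3CSK4. Over all 10587 genes these numbers were 5547 with CpG and 5297 with Pam3CSK4. The 0 h arrays are shared by both agents, so these counts are descriptions.

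Matches to E2F motifs were also counted in the promoters of called genes. The planned search named only the core of the interferon-stimulated response element, and the E2F and NF-kB motifs were added to it. The letters TTTCCCGC or TTTGGCGC, on both strands, occurred in 9 of 139 promoters of genes called higher (6.47%), 2 of 127 of genes called lower (1.57%), 270 of 11032 of genes tested (2.45%) and 514 of 32851 promoters of the table (1.56%). Mcm5 held 1 match, while Birc5, Plk1, Mcm10 and Prc1 held 0. Some genes have several promoters in the table, and no test was made of these shares.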

How the data were processed

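Total RNA of dendritic cells was made into biotin-labelled cRNA and hybridised to 21 Illumina mouse arrays, per the labels' protocols. The deposited table holds the authors' normalized intensity of 25697 probes on a linear scale. Their method of normalization was not given in the sources used here. Array medians lay between 47.1 and 47.4. The values appear to include background, so folds of dim genes may be understated. A table of unnormalized signals was left aside, since its 21 column names could not be tied to the samples. No detection p-values were used. The number of arrays limits the precision.

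Groups came from the labels, and same-numbered arrays share a genotype, which was a block in the model. The log2 intensities were fitted in R 4.3.3 with limma 3.58.1, using lmFit and eBayes with an intensity trend, on 7 conditions and 3 genotypes with 12 residual degrees of freedom, and 11 without the crel-/-relb-/- CpG array. Tests were two-sided. Symbols came from the platform annotation, updated by Entrez identifier for 23962 of 23978 named probes, and 1719 probes stay unnamed. A probe was tested if at least 3 of its 21 values exceeded the overall median, and each gene was represented by its brightest such probe, which left 10587 of 16593 genes (63.8%). No 2 arrays held identical values.

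The 37 gene lists, 26 of pathways and 11 of cell type markers, held 604 symbols, of which 529 were on the array and 475 were tested. The comparison and the lists were chosen with earlier results of these data known. The genes named are the 12 furthest in each direction among called genes with the same direction in 3 of 3 genotypes, up to 4 called members of each list by size or up to 2 members of a list with none, a fixed set of cytokine, receptor and NF-kB genes, and the 8 largest departures of the crel-/-relb-/- CpG array. Others are said to be named after their values were seen. Planned background correction and quantile normalization of unnormalized signals were applied to the deposited intensities as an alternative. The functions were tested on simulated data. Alternatives covered the filter, background, normalization, weights, variance model, probe summary, genotype block and arrays left out.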

Additional observations from a re-analysis of the deposited data

Results flagged for a closer look

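The difference between CpG and Pam3CSK4 itself differed between 24 h and 1 h for several named genes, by limma's test of 24 h minus 1 h in the model of all arrays. The change in log2 difference was positive for Cxcl2 (2.15), Il1a (1.89), Ccl12 (1.64), Nfkbiz (1.61), Irf1 (1.56), Csf1 (1.29), Il1rn (1.28), Fcgr4 (1.28), Mcm10 (1.07) and Prc1 (1.06). It was negative for Lox (-1.95), Heph (-1.11) and Mfap3l (-1.06). Without the crel-/-relb-/- CpG array this test did not pass for Il1a (adjusted p = 0.0647), Csf1 (0.0572) and Fcgr4 (0.0854), and it passed for the other 10. For Cxcl2, Il1a and Nfkbiz the positive value means that CpG was further below Pam3CSK4 at 1 h than at 24 h.

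Some genes had a difference of the opposite sign at another time in all 3 genotypes, in part a very small one. Among the genes above, Irf1, Csf1, Il1rn, Ccl12, Mcm10 and Prc1 had differences below 0 at 1 h and above 0 at 24 h in each genotype, with means at 1 h of -0.80, -0.52, -0.62, -0.04, -0.10 and -0.12, and Irf1 was not called at 24 h itself. For others the change was not called. The mean difference at 1 h was -0.20 for Slfn1, -0.15 for Tap2, -0.14 for Pparg and -0.054 for Zranb3, all of them higher with CpG at 24 h. Tnip1 had a mean difference of 0.055 at 8 h, with CpG lower at 24 h, and the change between these times was not called (24 h minus 8 h, -0.52, adjusted p = 0.442 in limma). The small means of Ccl12, Zranb3 and Tnip1 lay under the lowest residual SD of an array, 0.0966, and are not read as reversals. How many of all genes tested have such signs was not counted.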

How the results depend on the processing

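The count of 261 called genes over all genotypes, and of 169 without the crel-/-relb-/- CpG array, moved with the arrays that entered and with the genotype block. Leaving out 1 array at 24 h gave 108 to 424 and 39 to 164. Leaving out all WT arrays gave 52 and 15, all relb-/- arrays 120 and 62, and all crel-/-relb-/- arrays 104. The 6 arrays at 24 h alone, paired by genotype, gave 108. Without the crel-/-relb-/- CpG array the 24 h arrays alone gave 332, from 2 CpG and 3 Pam3CSK4 arrays, a fit with very few residual degrees of freedom. Without the replicate block, which here is the genotype, the counts were 34 and 27, and with array weights 138 and 106. The fits without the block and with array weights held the same arrays as the main fits, while the others held fewer. The cause of these changes was not tested. The other 10 settings, on filter, background, normalization, variance model, probe summary and the arrays at 0 h, stayed within 1.5 times. The count of 0 for 24 h minus 8 h became 6 with 16 added before log2, 7 with normexp, 6 with quantile normalization and 6 with robust eBayes, and 0 to 3 with 1 array left out, or 0 to 1 without the crel-/-relb-/- CpG array as well. The 6 arrays at 24 h alone cannot give that difference. Over the 59 named genes called in either fit, leaving out 1 array gave 354 values, of which 269 kept direction and call and 82 kept direction only, and the other settings gave 944, with 770 and 171. Among the calls lost with 1 array left out were those of Arg1, Atp5a1, Cd80, Csf1, Ddit3, Gclm, H2-DMa, Hspa5, Hspd1, Il12a, Il1rn, Irak3, Pparg, Tap2, Tlr8, Tnip1 and Txnrd1. Ptpn1 ranged from -0.83 to 0.23 with 1 array left out, turning positive without the WT CpG array, and turned to 0.12 without all WT arrays. Over all settings the median of the interferon-stimulated list ran from 0.25 to 1.10, with 0 to 8 called higher, that of the cell cycle list from 0.34 to 0.46, with 2 to 11 called higher, and that of inflammatory enzymes from -0.45 to -0.31, with 2 to 9 called lower. Values near 47.3 are close to background, which limits what dim genes such as Ccl12 and Il12a can show.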
